A study of Mus musculus with 42 samples.

Results

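Expression of 10 genes of the mouse MHC class I pathway was followed through 34 bulk RNA-Seq libraries and 1 pooled single-cell matrix of uterine natural killer (NK) cells. The 10 genes, out of 54353 measured, were listed by name as genes of 1 pathway, with earlier results of these data known: the heavy chains H2-K1, H2-D1, H2-T23 and H2-Q7, the shared light chain B2m, the peptide transporter subunits Tap1 and Tap2, the loading factor Tapbp (tapasin), the immunoproteasome subunit Psmb8 and the transcriptional regulator Nlrc5. Class I molecules carry short peptides from inside the cell to its surface. Proteasomes cut the peptides, the TAP transporter moves them into the endoplasmic reticulum, tapasin helps load them onto a heavy chain paired with B2m, and interferons and NLRC5 raise the transcription of many of these genes. NK cells both carry class I molecules and read them on other cells through inhibitory receptors, and H2-T23 encodes Qa-1, the ligand of the CD94/NKG2A receptor.

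All cells came from wild-type C57BL/6 mice, which the methods give as adult females, and tissue-resident NK (trNK) cells were sorted as live CD45+NK1.1+NKp46+CD49a+CXCR6- cells unless stated. The gestation experiment held trNK cells of virgin mice and of pregnant dams, taken either on gestation day (gd) 6.5 or on gd8.5, and the subset experiment split gd8.5 trNK cells by their CD55 and 4-1BB surface levels into CB_low, CB_int and CB_hi. The inhibitor culture held live NK1.1+ cells after 3 days without IL-21 (control), with 20 ng/mL IL-21, or with IL-21 and 1 µM Stattic, an inhibitor of STAT3. The time course held trNK cells cultured in IL-15 for 0, 6, 24 or 72 h with or without 20 ng/mL IL-21. Its cells were taken at gd6.5. For both cultures the paper names the starting cells as the trNK-V subgroup of gd6.5 mice, with low or no 4-1BB and CD55. The culture medium in its methods held IL-15. Each of the 17 groups had 2 libraries, and the labels do not say whether these came from separate mice, so that p-values measure only the spread between libraries, which may be technical.

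Total counts ran from 11862089 to 66468883 a library, and no pair of libraries was identical. The trNK marker genes Ncr1, Klrb1c, Eomes and Itga1 were detected in all 34 libraries. The libraries of 1 group were least alike in the 72 h cultures, where 1152 of 3503 genes without IL-21 and 1170 with IL-21 differed more than 2-fold between replicates. The same count was 671 of 3503 at 0 h with IL-21, 532 to 725 of 4158 in the groups of the inhibitor culture and 590 of 4499 in virgin trNK cells, against 102 at gd6.5 and 88 at gd8.5. Virgin replicate 1 had been counted on other gene models, with 1333 genes of another length; H2-K1, Tapbp and Psmb8 were among these and B2m was not. The time course was made with another library kit than the other experiments, so levels were not compared across that boundary. Levels below are RPKM, reads scaled to gene length and to library size, and fold changes are log2 values from edgeR with Benjamini-Hochberg adjusted p, called below 0.05.

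Of the 10 genes, 8 lie in the MHC region of chromosome 17 (GRCm38), between Tapbp at chr17:33915899-33929288 and H2-T23 at chr17:36029773-36032855. Tap1 (chr17:34187553-34197225), Psmb8 (chr17:34197721-34201454) and Tap2 (chr17:34203527-34216321) are neighbours on the plus strand. B2m lies at chr2:122147686-122153083 and Nlrc5 at chr8:94434356-94527272. Classical class I promoters are known for a compact upstream region that holds an NF-kB type enhancer, an interferon response element and an SXY module bound by NLRC5 and its partners. The 180 bases upstream of the RefSeq start (GRCm38.p6) are shown for the heavy chains and B2m, which were lower in CB_hi below, and for Psmb8, which was not. Capitals mark 4 motifs searched on both strands: a kB motif GGGATTCCC, an interferon-type motif AANTGAAA, an X2-type motif TGNTGACG and a Y box CCAAT.
H2-K1, chr17:34000334-34000513, minus strand: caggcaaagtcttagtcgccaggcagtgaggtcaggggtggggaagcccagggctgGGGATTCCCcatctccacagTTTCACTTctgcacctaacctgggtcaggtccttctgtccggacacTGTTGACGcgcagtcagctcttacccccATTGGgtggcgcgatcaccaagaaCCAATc
H2-D1, chr17:35262914-35263093, plus strand: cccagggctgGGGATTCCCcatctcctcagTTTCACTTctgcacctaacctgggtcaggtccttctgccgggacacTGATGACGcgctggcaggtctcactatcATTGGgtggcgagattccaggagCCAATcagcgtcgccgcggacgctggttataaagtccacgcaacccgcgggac
H2-Q7, chr17:35438975-35439154, plus strand: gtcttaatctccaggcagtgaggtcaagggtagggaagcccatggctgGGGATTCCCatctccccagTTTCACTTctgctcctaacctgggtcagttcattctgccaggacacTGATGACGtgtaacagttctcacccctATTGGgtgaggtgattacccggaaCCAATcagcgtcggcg
H2-T23, chr17:36032702-36032881, minus strand: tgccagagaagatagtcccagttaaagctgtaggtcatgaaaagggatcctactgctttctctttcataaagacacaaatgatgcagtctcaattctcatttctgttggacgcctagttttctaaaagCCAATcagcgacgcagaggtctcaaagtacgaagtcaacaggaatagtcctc
B2m, chr2:122147507-122147686, plus strand: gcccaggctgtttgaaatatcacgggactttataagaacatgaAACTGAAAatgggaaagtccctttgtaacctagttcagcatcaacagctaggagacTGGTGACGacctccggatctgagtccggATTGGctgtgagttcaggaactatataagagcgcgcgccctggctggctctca
Psmb8, chr17:34198015-34198194, plus strand: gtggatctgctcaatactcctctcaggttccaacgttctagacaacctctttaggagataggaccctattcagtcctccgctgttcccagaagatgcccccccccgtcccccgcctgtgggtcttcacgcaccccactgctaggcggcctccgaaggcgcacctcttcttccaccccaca

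H2-K1, H2-D1 and H2-Q7 carried all 4 motifs in the same order. Of 32851 RefSeq promoter windows, each with 250 bases before and 50 after a start, 4 held all 4 motifs (0.0122%), and these were the windows of those 3 genes, H2-K1 having 2. The motifs stand for elements already known from class I promoters, so that this count is not an unbiased search. The kB motif stood in 0.353% of all windows, the interferon-type motif in 6.58%, the X2-type motif in 2.26% and the Y box in 37.4%. B2m carried the interferon-type, X2-type and Y motifs, with 28 bases from the first base of the X2-type motif to that of the next Y box, as in H2-K1 and H2-D1; H2-Q7 had 27. H2-T23 and Tap1 held a Y box alone, Tapbp held 2, and the Psmb8 window held none of the 4. The RefSeq starts used for Psmb8, H2-T23, H2-D1 and Tapbp lie inside the gene spans of the annotation used for positions, so these windows may not be those of the outermost start, and Tap2 and Nlrc5 were not among the windows used. A match describes these letters and not a bound site.

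The 3 subsets of gd8.5 trNK cells held most of the calls: 7 of the 10 genes were lower in CB_hi, the cells with the most CD55 and 4-1BB, than in CB_low. These 7 were the 4 heavy chains, B2m, Tap1 and Nlrc5. Tap2, Tapbp and Psmb8 did not pass the test. Of all 4683 genes tested, 34.6% were called in this comparison and 19.5% were called lower, and the median log2 fold change was -0.80 over the members and -0.01 over all genes. All 10 members passed the level filter, but Nlrc5 did so through CB_low alone.

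**Figure D1:**
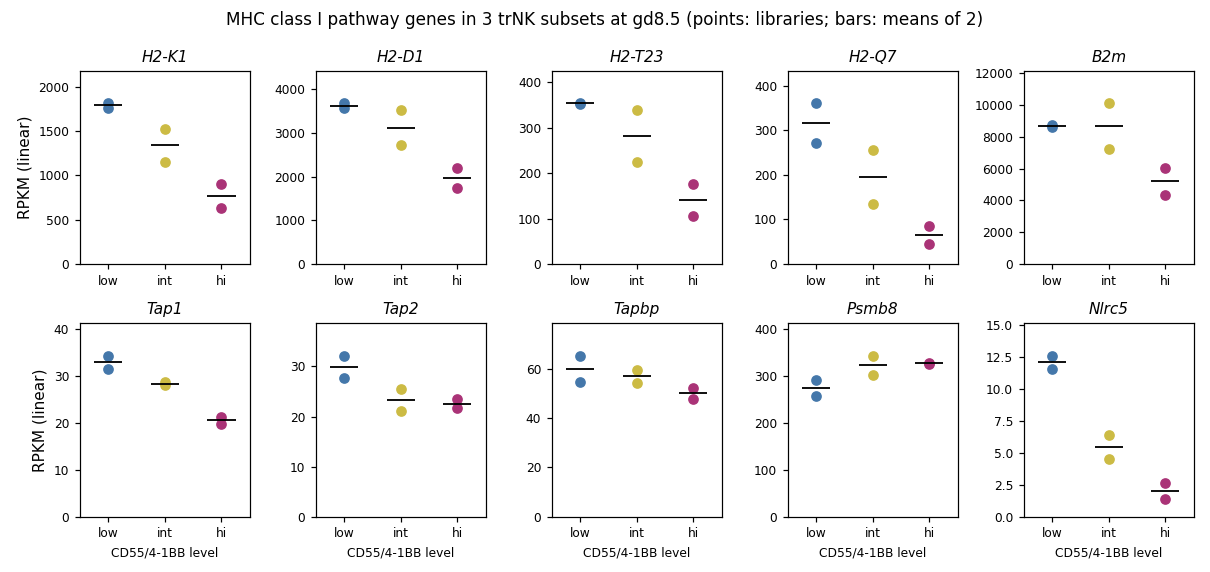
RPKM of the 10 genes (linear axes from 0) in the CB_low, CB_int and CB_hi libraries of gd8.5 trNK cells. Points are libraries and bars are means of 2; the heavy chains, B2m, Tap1 and Nlrc5 were lower in both CB_hi libraries than in both CB_low libraries, and the Psmb8 values were higher but did not pass the test.

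H2-K1 and H2-D1 encode the classical class I heavy chains of this strain. H2-K1 stood at 1762 and 1819 RPKM in the CB_low libraries, 1528 and 1153 in CB_int and 907 and 636 in CB_hi, a log2 fold change between CB_hi and CB_low of -1.21 ± 0.219 (SE, adjusted p = 0.00958). H2-D1 stood at 3686 and 3564 in CB_low, 3516 and 2713 in CB_int and 2198 and 1748 in CB_hi, with -0.87 ± 0.179 (adjusted p = 0.0142). The 3 groups did not overlap for either gene, although the highest CB_int library of H2-D1 came near CB_low. These heavy chains share long stretches of sequence with each other and with other class I genes, so reads may have been split or lost between them.

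H2-T23 and H2-Q7, nonclassical heavy chains, were lower as well. H2-T23 stood at 352 and 355 RPKM in CB_low, 340 and 225 in CB_int and 177 and 105 in CB_hi, with a log2 fold change of -1.32 ± 0.293 (adjusted p = 0.0172). H2-Q7, a Qa-2 gene, stood at 361 and 271 in CB_low, 257 and 135 in CB_int and 86.0 and 45.2 in CB_hi, with -2.26 ± 0.407 (adjusted p = 0.00948). H2-Q7 thus had the largest fall of the heavy chains among the members, and its CB_hi libraries lay far below every CB_low library. H2-Q7 and H2-Q6 are near-identical copies, so the value of each is uncertain.

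B2m, the light chain of every class I molecule, was among the most abundant transcripts, ranked between 1 and 8 of all genes by RPKM in every library. It stood at 8601 and 8716 RPKM in CB_low, 10130 and 7211 in CB_int and 6069 and 4359 in CB_hi, a log2 fold change of -0.73 ± 0.219 (adjusted p = 0.0424). The CB_int libraries lay on either side of CB_low, and the CB_hi libraries lay below all others. Tap1 stood at 31.6 and 34.3 in CB_low, 28.6 and 28.0 in CB_int and 21.2 and 19.8 in CB_hi, with -0.68 ± 0.148 (adjusted p = 0.0165).

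The other loading and processing genes did not pass the test. Tap2, the partner of Tap1 in the transporter, stood at 32.2 and 27.7 RPKM in CB_low and 21.7 and 23.5 in CB_hi, with a log2 fold change of -0.40 ± 0.185 (adjusted p = 0.13). Tapbp stood at 54.6 and 65.2 in CB_low and 52.3 and 47.7 in CB_hi, with -0.26 ± 0.164 (adjusted p = 0.249). Psmb8, a catalytic subunit of the immunoproteasome, was the one member above 0, at 292 and 258 in CB_low and 328 and 326 in CB_hi, with 0.26 ± 0.151 (adjusted p = 0.218). CB_low and CB_hi did not overlap for these 3 genes either. With 2 libraries a group, such a gap says little, here and elsewhere. The share of all genes with such a gap was not counted.

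Nlrc5, the class I transactivator, had the largest fold change of the 10. It stood at 11.6 and 12.6 RPKM in CB_low, 6.37 and 4.52 in CB_int and 2.61 and 1.37 in CB_hi, a log2 fold change of -2.60 ± 0.365 (adjusted p = 0.00507). Levels stepped down from CB_low through CB_int to CB_hi with no overlap. Since it passed the filter through CB_low alone, it was tested again with edgeR's own count filter, where it kept its call (adjusted p = 0.0169).

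With that wider filter, 14335 genes were tested, 7.93% of genes were called, and 4 members were called: H2-K1, H2-D1, H2-Q7 and Nlrc5. H2-T23 (adjusted p = 0.0526), Tap1 (0.0986) and B2m (0.136), from edgeR, were not. Every member had a log2 fold change above that of the main fit, with -1.03 for H2-K1, -0.55 for B2m and 0.44 for Psmb8. The cause of this shift was not tested. Leaving out 1 library gave 4 member calls without CB_low replicate 1 (22.4% of all genes), 2 without CB_low replicate 2 (11.8%), 6 without CB_hi replicate 1 (18.7%) and 1 without CB_hi replicate 2 (7.92%), where the calls over all genes went from 1621 to 381. Every one of the 7 stayed below 0.

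CB_int lay between the others for most members, and neither step held a member call in the main edgeR fit. With the replicate number as a block, edgeR called 1 member between CB_int and CB_hi, against 173 of 4683 genes. From CB_low to CB_int, 0 of 10 members were called by edgeR (1 at an unadjusted p under 0.05) against 0.32% of all genes, with the lowest value for Nlrc5 (-1.14 ± 0.346, adjusted p = 0.161). From CB_int to CB_hi, 0 of 10 were called by edgeR against 1.84% of all genes, with 9 of 10 below 0 and unadjusted p under 0.05 for 7 members. DESeq2 called 1 member in the first step and 7 in the second, against 436 and 624 of 4683 genes. H2-Q7 (-1.58 ± 0.398, adjusted p = 0.0895 in edgeR) and Nlrc5 (-1.45 ± 0.353, adjusted p = 0.0865) had the largest differences in the second step.

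**Figure D2:**
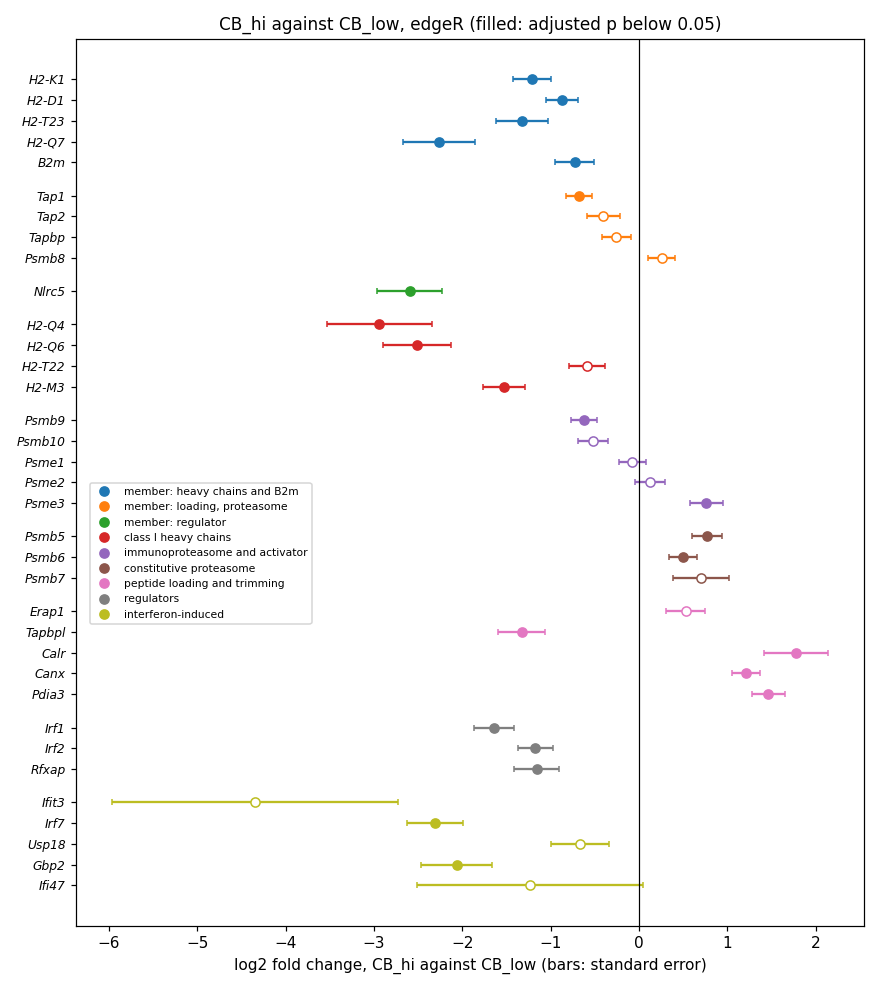
edgeR log2 fold changes between CB_hi and CB_low (x axis) for the 10 members and the other tested genes of the pathway, by role; bars are standard errors and filled points have an adjusted p below 0.05. The points of the heavy chains, regulators and interferon-induced genes lie left of 0, with H2-T22, Ifit3, Usp18 and Ifi47 not filled, and those of Psmb5, Psmb6, Psmb7, Calr, Canx and Pdia3 lie right of it, with Psmb7 not filled.

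Other genes of the pathway moved in both directions between CB_hi and CB_low. Of 28 listed, 20 were tested and 14 called, 6 higher and 8 lower, against 34.6% of all genes called, 15.1% higher and 19.5% lower. Of 4 heavy chains, 3 were lower (H2-Q4, H2-Q6 and H2-M3), as were all 3 tested regulators (Irf1, Irf2 and Rfxap), and no member of either list was higher. Irf1, an interferon-induced activator of class I genes, had -1.64 ± 0.223 (adjusted p = 0.00458). Of 3 constitutive proteasome subunits, Psmb5 and Psmb6 were higher. Of 5 genes of the immunoproteasome and its activator, Psmb9 was lower, Psme3 was higher and 3 did not pass the test.

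Genes of peptide loading also differed in both directions. Pdia3 (1.47 ± 0.184, adjusted p = 0.00403) and Canx (1.21 ± 0.156, adjusted p = 0.00408), chaperones that fold many glycoproteins as well as class I, were higher, as was Calr, while Tapbpl, a tapasin-related peptide editor, was lower. Of 10 interferon-induced genes, 5 were tested and all 5 had values below 0, with Irf7 (-2.31 ± 0.317, adjusted p = 0.00477) and Gbp2 (-2.06 ± 0.405, adjusted p = 0.0125) called; 2 of 5 is near the 34.6% of all genes.

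Markers of other cells moved with the subsets. The summed RPKM of 6 macrophage genes was 23.7 and 277 in CB_low, 230 and 317 in CB_int and 3.98 and 5.16 in CB_hi. Between 0 and 3 of the 6 genes were at 0 in a library. T cell genes summed to 531 and 572 in CB_low, 398 and 389 in CB_int and 381 and 237 in CB_hi, B cell genes to 253 and 299, 219 and 256, and 189 and 169, and stromal genes to 51.9 and 4.57, 4.78 and 2.11, and 0.513 and 0.680. All 4 lists were thus lower in both CB_hi libraries than in both CB_low libraries, while neutrophil or monocyte and erythroid genes overlapped. Over the 34 bulk libraries, 2 to 4 of the 5 B cell genes and 1 to 3 of the 7 T cell genes were at 0. The same held for 1 to 4 of the 4 neutrophil or monocyte genes. At 0 h of culture without IL-21, 4 of 5 B cell genes were at 0 and the sums were 126 and 125 RPKM. These sums thus rest on part of each list, here and below, and whether they mark other cells was not tested. Class I genes are widely expressed, and the part of such cells in the differences was not tested. The 4 trNK markers summed to 1379 and 1388 in CB_low and 799 and 644 in CB_hi. In bulk libraries, fewer cells of a type and less RNA per cell cannot be told apart.

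Single cells gave the same genes cell by cell. The matrix pooled live CD45+NK1.1+NKp46+ cells of virgin and gd8.5 uteri without a tag that separates them, so it was treated as 1 sample with no test between conditions. Of 15175 cells, 8907 passed the filter, and all but 13 of these fell into 16 clusters of at least 50 cells, made without the members and the other pathway genes. Levels below are unique molecular identifiers (UMIs) summed over a cluster and scaled to the cluster's total (CPM), and intervals are 95% Poisson intervals that cover counting error only.

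**Figure D3:**
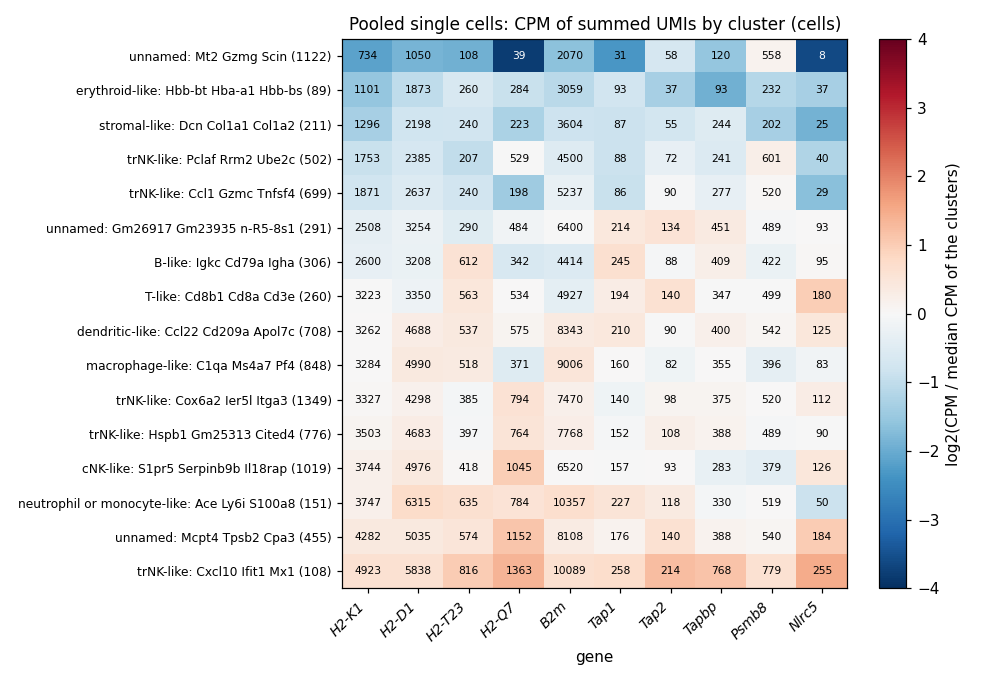
CPM of the 10 genes in 16 clusters of the pooled single cells, with the name, leading genes and cell number of each cluster; colour is the log2 ratio to the median of the clusters. The top row, the cluster led by Mt2, Gzmg and Scin, is lowest for 7 genes, and the bottom row, trNK-like cells led by interferon-induced genes, is highest for 8.

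The lowest class I levels lay in 1 cluster of 1122 cells led by Mt2, Gzmg, Scin and Ctsg. It stayed unnamed because 2 of 4 trNK markers counted as detected, but it held Eomes (406 CPM) and Tnfrsf9, the 4-1BB gene (1253 CPM), and 5.22% of its UMIs came from granzyme genes. H2-K1, H2-D1, H2-T23, H2-Q7, B2m, Tap1 and Nlrc5 were lowest there of all 16 clusters. Tap2 and Tapbp were lowest in erythroid-like cells and Psmb8 in stromal-like cells.

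The Mt2 and Gzmg cluster was taken as the lowest of the 16 in H2-K1 and set against the largest trNK-like cluster. Its H2-K1 ratio was thus below 1 by that choice, which also favours low ratios for genes that vary with H2-K1. Against the 1349 trNK-like cells led by Cox6a2, Ier5l and Itga3, the levels in the Mt2 and Gzmg cluster differed most for H2-Q7 and Nlrc5. H2-Q7 stood at 38.5 CPM against 794, a ratio of 0.0485 (0.0422 to 0.0554). Nlrc5 stood at 7.53 CPM against 112, a ratio of 0.0674 (0.0485 to 0.0917), from 45 and 462 UMIs. H2-K1 stood at 734 CPM against 3327, a ratio of 0.221 (0.213 to 0.228). The ratio moved far more with the cell filter and clustering than these counting intervals span, from 0.0329 to 0.266 for H2-Q7 and from 0.0615 to 0.209 for Nlrc5. H2-Q7 and Nlrc5 were also the members with the largest log2 fold changes between CB_hi and CB_low in bulk.

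The other members had ratios nearer to 1 than H2-K1. H2-D1 had a ratio of 0.244, Tap1 of 0.226, B2m of 0.277, H2-T23 of 0.280 and Tapbp of 0.322. Over the other settings H2-D1 ranged from 0.154 to 0.476, Tap1 from 0.147 to 0.566, B2m from 0.206 to 0.526, H2-T23 from 0.180 to 0.494 and Tapbp from 0.214 to 0.765. Tap2 had 0.588 (0.508 to 0.680), and 0.311 to 0.761 over the settings. Psmb8 stood at 558 CPM against 520, a ratio of 1.07 (1.02 to 1.13), and turned to 0.986 when the limits were set on UMIs.

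CPM is a share of each cell's RNA, and the cells of the 2 clusters differed in RNA content, with medians of 5623 and 2760 UMIs. In UMIs per cell, the ratio was 0.383 for H2-K1, 0.0843 for H2-Q7, 0.117 for Nlrc5, 0.482 for B2m, 1.02 for Tap2 and 1.86 for Psmb8. H2-K1, H2-Q7, Nlrc5 and B2m were thus lower also per cell, Tap2 was near equal, and Psmb8 was higher. Other clustering settings gave a CPM ratio of H2-K1 between 0.133 and 0.466, the highest under limits on UMIs, which kept 4338 cells and 122 of the 1122 cells of the cluster.

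Between these lay trNK-like cells led by Ccl1, Gzmc and Tnfsf4, which had the highest Tnfrsf9 level of the 3 (1608 CPM). H2-K1 stood at 1871 CPM there, H2-Q7 at 198, B2m at 5237 and Nlrc5 at 28.5, in each case between the other 2 clusters. Psmb8 was 520 CPM (496 to 546), with an interval that overlapped that of the Cox6a2 cluster (498 to 542). Dividing trNK-like cells led by Pclaf and Rrm2 had H2-K1 at 1753 CPM and Psmb8 at 601.

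The highest levels of 8 members lay in 108 trNK-like cells led by Cxcl10, Ifit1 and Mx1. H2-Q7 stood at 1363 CPM (1227 to 1509), Nlrc5 at 255 (198 to 323), Tapbp at 768, Tap2 at 214 and Psmb8 at 779. H2-D1 and B2m were highest in neutrophil or monocyte-like cells, at 6315 and 10357 CPM. Under the other settings these 108 cells joined larger clusters, so that their levels were not seen again on their own. Over all 16 clusters the highest level was 35.4 times the lowest for H2-Q7 and 33.8 times for Nlrc5, but 3.87 times for Psmb8 and 5.00 times for B2m.

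Conventional NK-like cells (H2-K1 3744 CPM, H2-Q7 1045, Nlrc5 126) stood near the Cox6a2 cluster. NK transcripts were counted in clusters that should lack them. Ncr1 ranged from 61.0 CPM in macrophage-like cells to 207 in erythroid-like cells over the B-like, T-like, dendritic-like, macrophage-like, neutrophil or monocyte-like, erythroid-like and stromal-like clusters, and Gzmd from 577 to 989. Free RNA and doublets, none of which were removed, cannot be told apart here, and their part in the members' levels was not tested.

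Other pathway genes in the same pair of clusters had ratios on either side of 1; those named here were chosen after their values were seen. H2-Q6 had a ratio of 0.0526, H2-Q4 of 0.0685, Irf1 of 0.327, Irf7 of 0.126 and Tapbpl of 0.238. Calr had 1.69, Psmb5 1.54, Psmb7 1.48, Psmb6 1.31, Psme3 1.25 and Pdia3 1.18.

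Few members were called between stages of gestation with all groups in 1 edgeR fit. At gd6.5 against virgin, B2m was lower and was 1 of 9 tested members called, against 9.27% of all genes. B2m stood at 14440 and 9226 RPKM in virgin, 5174 and 5893 on gd6.5, then 9087 and 9554 on gd8.5, with a log2 fold change at gd6.5 of -1.18 ± 0.232 (adjusted p = 0.0353). Both gd6.5 libraries lay below all others, and at gd8.5 B2m lay on either side of the lower virgin library. The trNK markers summed to 1241 and 1222 RPKM in virgin, 711 and 741 on gd6.5, then 922 and 933 on gd8.5, and at gd6.5 T cell (421 and 280 against 599 and 468), neutrophil or monocyte (11.5 and 2.54 against 68.7 and 34.2) and macrophage genes (1.99 and 2.80 against 10.1 and 6.05) also summed to less than in virgin; their part was not tested. Without gd6.5 replicate 1 or 2, B2m had log2 fold changes of -1.11 and -1.30 and lost its call (adjusted p = 0.264 and 0.147, edgeR), in fits that called 0 of all genes. It was also not called with the wider filter (adjusted p = 0.0951, edgeR).

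**Figure D4:**
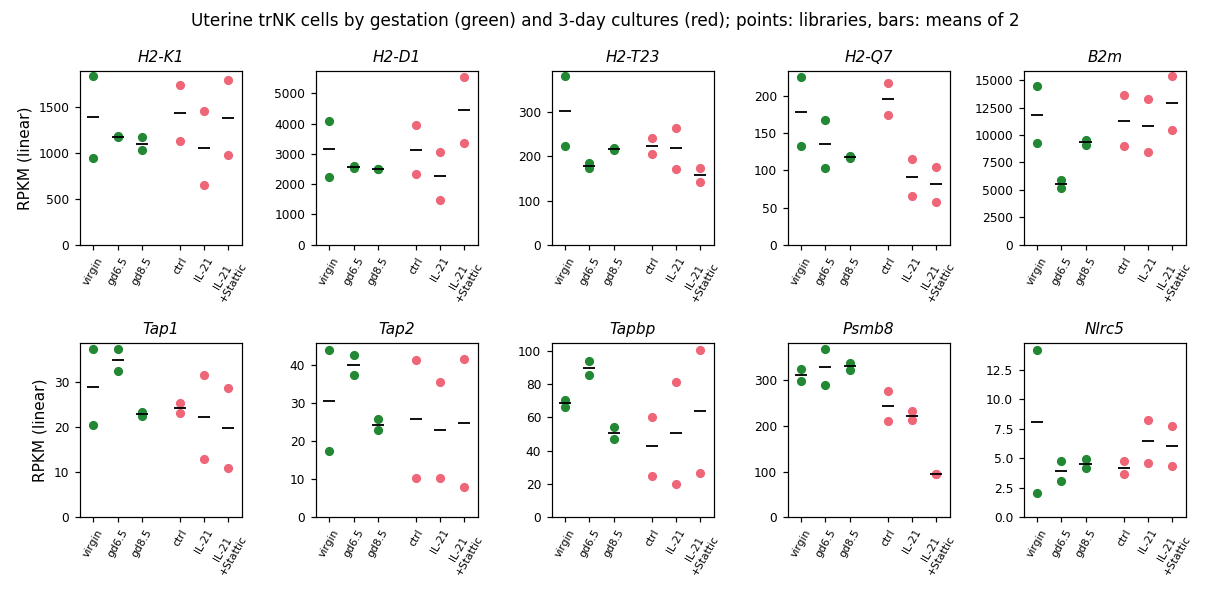
RPKM of the 10 genes (linear axes from 0) in the gestation libraries (green) and the 3-day cultures (red). Points are libraries and bars are means of 2; the virgin libraries lie far apart for several genes, B2m is lowest at gd6.5, and Psmb8 is lowest with IL-21 and Stattic.

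Other gestation values differed with the virgin library used. H2-K1 stood at 1839 and 947 RPKM in virgin, 1179 and 1182 on gd6.5, then 1171 and 1036 on gd8.5, so that the pregnant libraries lay between the virgin ones. H2-T23 stood at 382 and 224 in virgin, 184 and 173 on gd6.5, then 215 and 218 on gd8.5, with -0.85 ± 0.262 at gd6.5 (adjusted p = 0.0845). Nlrc5 stood at 14.2 and 2.00 in virgin and between 3.09 and 4.89 in the pregnant libraries, and did not pass the filter. Without virgin replicate 2, 5 members were called at gd6.5 (33% of all genes) and 9 at gd8.5 (22.2%), all lower, and both counts include Nlrc5, which passed the filter in that fit through virgin replicate 1 alone. Without virgin replicate 1, 3 were called at gd6.5 (20.9% of all genes) and 0 at gd8.5 (1.81%): at gd6.5 B2m was lower, while Tap1 (0.71) and Tap2 (1.15) were higher. In these fits the virgin arm is 1 library, assumed to vary like the other groups. Without virgin replicate 2, that library is the one counted on other gene models, with other lengths for H2-K1, Tapbp and Psmb8. The fits used counts with no correction for gene length. H2-K1 at gd6.5 changed sign with the virgin library used, at 0.25 without replicate 1 and -0.84 without replicate 2.

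At gd8.5 against virgin, 0 of 9 members were called by edgeR (1 at an unadjusted p under 0.05, and 1 by DESeq2) against 0.422% of all genes. All 9 had values below 0, but without virgin replicate 1 H2-K1 (0.17), H2-D1 (0.10), Tap1 (0.11) and Tap2 (0.44) were above 0. Between gd8.5 and gd6.5, 0 of 9 members and 0% of all genes were called by edgeR, with 1073 genes at an unadjusted p under 0.05, and DESeq2 called 669 genes and 2 members. The edgeR fit of these groups alone called 4 members, B2m higher and Tap1, Tap2 and Tapbp lower at gd8.5, against 22.4% of all genes. In the edgeR fit of all groups, Tapbp had the smallest adjusted p of the members (-0.80 ± 0.161, adjusted p = 0.0943). It stood at 85.3 and 93.6 RPKM on gd6.5, then 47.0 and 54.1 on gd8.5. Psmb8 had log2 fold changes between -0.16 and 0.03 in the 3 comparisons.

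Interferon-induced genes were also called at gd6.5. Of 10 interferon-induced genes, 4 were tested and 3 were lower, Irf7 (-1.35), Usp18 (-1.15) and Ifi47 (-1.68), against 4.29% of all genes called lower. A gene could pass the filter through virgin or gd8.5 alone, and the groups through which these 4 passed are not given here. The count over all genes at gd6.5, 417 here, was 5 with the wider filter, 2 with the replicate block and 0 in the fit of the groups compared alone. Erythroid genes summed to 224 RPKM in virgin replicate 2 and 844 in gd8.5 replicate 2, and to between 0.237 and 12.8 in the other gestation libraries; their part was not tested.

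In the inhibitor culture edgeR called no member, and DESeq2 called 1 in each comparison with Stattic. With IL-21 against control, 0 of 9 members were called by edgeR (1 at an unadjusted p under 0.05, and 0 by DESeq2) against 0.289% of all genes. H2-Q7 stood at 174 and 217 RPKM in control, 66.0 and 115 with IL-21 and 105 and 57.9 with IL-21 and Stattic, so that both treated groups lay below control (-0.94 ± 0.392 with IL-21, adjusted p = 0.522). The trNK markers were also lower in both treated groups, at 1099 and 966 in control, 313 and 367 with IL-21 and 228 and 234 with Stattic, as were T cell genes, at 571 and 509, 322 and 441, and 236 and 287. B cell genes were lower too, at 136 and 257 in control, 46.4 and 120 with IL-21 and 65.3 and 53.8 with Stattic. The part of these lists was not tested. H2-K1 ranged from 649 to 1801 in the 6 libraries, and its groups overlapped.

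Psmb8 was the member nearest to a call with the inhibitor. It stood at 277 and 212 RPKM in control, 212 and 232 with IL-21 and 94.5 and 93.4 with IL-21 and Stattic. Its log2 fold change was -1.14 ± 0.282 against IL-21 (adjusted p = 0.0855) and -1.09 ± 0.282 against control (adjusted p = 0.0722). Psmb8 in both Stattic libraries was below every other library of the experiment. Neutrophil or monocyte genes summed to 48.2 and 57.5 RPKM in these libraries and to between 7.22 and 25.8 in the other 4, and their part was not tested. H2-D1 stood at 2348 and 3937 RPKM in control, 1489 and 3067 with IL-21 and 5537 and 3362 with IL-21 and Stattic (1.08 ± 0.454 against IL-21, adjusted p = 0.244). By edgeR, 0 of 9 members were called in either comparison, against 2.96% and 4.74% of all genes, with 2 members at an unadjusted p under 0.05 and 1 called by DESeq2 in each. Of 19 other pathway genes tested, edgeR called 0 in the 3 comparisons, with 1 to 5 at an unadjusted p under 0.05, and DESeq2 called 1 to 4.

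In the time course, edgeR called 2 of 7 tested members higher with IL-21 at 72 h, H2-T23 and Psmb8, and 0 at 0, 6 or 24 h. At 72 h the percentages of all genes called were 9.39 in either direction and 7.34 higher. The median over the members was 0.91 and over all genes 0.05. In fits of the groups compared alone, the order of the times turned: 0 members and 0 of 2467 genes were called at 72 h, with H2-T23 at 1.82 (adjusted p = 0.575, edgeR) and Psmb8 at 1.05 (adjusted p = 0.639), and 4 members were called at 24 h, H2-K1, H2-T23 and B2m lower and Tapbp higher, against 33.1% of all genes. Tap1, Tap2 and Nlrc5 did not pass the filter, with at most 3.53, 2.31 and 1.82 RPKM in any library of the time course.

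**Figure D5:**
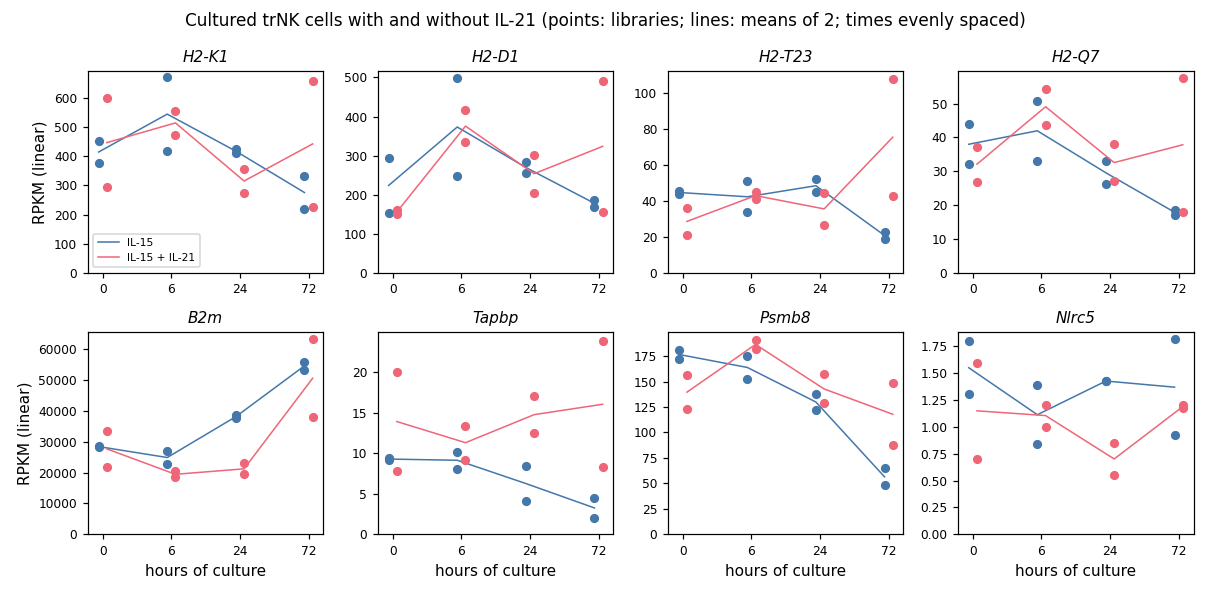
RPKM of 8 members (linear axes from 0) over 0, 6, 24 and 72 h of culture with IL-15 alone (blue) or with IL-21 (red), drawn at even spacing. Points are libraries and lines join means of 2; at 72 h Psmb8 and H2-T23 are higher in both IL-21 libraries than in both libraries without it, while 1 IL-21 library is far above the other for the heavy chains.

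H2-T23, the Qa-1 gene, stood at 22.8 and 18.8 RPKM without IL-21 and 108 and 43.0 with IL-21 at 72 h, a log2 fold change of 1.71 ± 0.346 (adjusted p = 0.0118). At 24 h the levels were 44.9 and 52.0 without and 44.7 and 26.5 with IL-21, and the IL-21 effect at 72 h exceeded that at 24 h by 2.27 ± 0.483 (adjusted p = 0.0235), beside a shift of 0.16 over all genes. The groups did not overlap at 72 h, and IL-21 replicate 1 was the higher library by far. Without it, the fold change at 72 h was 1.19 and lost its call (adjusted p = 0.0635, edgeR).

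Psmb8 stood at 64.8 and 48.1 RPKM without IL-21 and 148 and 87.4 with IL-21 at 72 h, a log2 fold change of 0.96 ± 0.171 (adjusted p = 0.00551). Without IL-21 it had fallen from 123 and 137 at 24 h, by 0.87 ± 0.170 on the log2 scale (adjusted p = 0.00622). Both Psmb8 calls used the same 72 h libraries without IL-21. Psmb8 was the 1 of 7 members (14.3%) called between 24 h and 72 h without IL-21. This share is near that of all genes, with 17.7% called and 11.3% called lower. That call was lost without the 24 h replicate 2 (adjusted p = 0.0575) and in the fit of the groups compared alone (-0.94, adjusted p = 0.0861, edgeR), where 73 of 2843 genes were called. The difference of its IL-21 effect between 72 h and 24 h was 0.93 ± 0.240 (edgeR, adjusted p = 0.0561). Thus 1 of 7 members, H2-T23, was called in that contrast, against 4.34% of all genes. H2-T23 lost this call without either 24 h replicate, without the 24 h IL-21 replicate 2 and in the fit of the groups compared alone. Psmb8 had larger values in that contrast than its 0.93 with all libraries when 1 of 2 libraries was left out. These were 1.11 without tc_72h replicate 1 and 1.025 without the 72 h IL-21 replicate 2.

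Tapbp had the largest fold change at 72 h, from 1.96 and 4.54 RPKM without IL-21 to 23.8 and 8.26 with it (2.09 ± 0.620), and its adjusted p was 0.0584; it was called without the 72 h replicate 2 (adjusted p = 0.0193) or the IL-21 replicate 2 (0.0288), by edgeR. The classical heavy chains were high in 1 of the 2 IL-21 libraries. H2-K1 stood at 331 and 220 without and 659 and 225 with IL-21, and H2-D1 at 169 and 187 without and 492 and 156 with IL-21. H2-K1 (-0.14) and H2-D1 (-0.07) changed sign when that library, IL-21 replicate 1, was left out.

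B2m was not called in the time course by edgeR with all groups in the fit; the fit of the groups compared alone called it at 24 h, and DESeq2 called it between 24 h and 72 h without IL-21 (adjusted p = 0.0441). Without IL-21 it stood at 28320 and 28600 RPKM at 0 h, 37630 and 38690 at 24 h and 53280 and 56020 at 72 h (0.87 ± 0.356 between 24 h and 72 h, adjusted p = 0.117). With IL-21 it stood at 19430 and 23050 at 24 h, below the libraries without it (-0.94 ± 0.356, adjusted p = 0.234), and at 37980 and 63310 at 72 h. The IL-21 libraries lay below those without it at 24 h and on either side of them at 72 h. At 24 h the trNK markers (898 and 866 against 1503 and 1396), T cell genes (429 and 470 against 549 and 609), B cell genes (91.4 and 79.1 against 157 and 153) and neutrophil or monocyte genes (2.52 and 3.16 against 18.2 and 8.31) also summed to less with IL-21, and their part was not tested. At 72 h the trNK markers summed to 1370 and 1058 with IL-21 against 1524 and 1581 without, while the T cell, B cell and neutrophil or monocyte sums overlapped.

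With all groups in 1 edgeR fit, the other contrasts held no call among the members. With IL-21, 0 of 7 were called in that fit at 0 h, 6 h and 24 h, against 0%, 2.2% and 1.8% of all genes; 1 member, B2m at 24 h, had an unadjusted p under 0.05, and DESeq2 called 0. At 0 h, edgeR gave 110 genes at an unadjusted p under 0.05 and DESeq2 called 0. Without IL-21, 0 of 7 were called between 0 h and 6 h against 0% of all genes (106 at an unadjusted p under 0.05, and 11 called by DESeq2) and 0 of 7 between 6 h and 24 h against 0.0856%. For the IL-21 effect at 24 h minus that at 6 h, 0 of 7 members and 0% of all genes were called (69 at an unadjusted p under 0.05, and 3 called by DESeq2).

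Of 16 other pathway genes tested at 72 h, 3 were higher with IL-21, against 7.34% of all genes, and 0 lower; the fit of the groups compared alone called 0 genes. The 3 were H2-T22, a nonclassical heavy chain (2.31 ± 0.434, adjusted p = 0.00801), Psme1, a subunit of the proteasome activator (0.95 ± 0.233, adjusted p = 0.028), and Erap1, which trims peptides in the endoplasmic reticulum (1.68 ± 0.460, adjusted p = 0.0435). Between 24 h and 72 h without IL-21, 6 of these 16 were lower, against 11.3% of all genes, with H2-T22 (-2.17), Psme1 (-1.15) and Psmb9 (-1.41) at the smallest adjusted p. H2-T22, Psme1 and Erap1 were called in both contrasts, which share the 72 h libraries without IL-21. Of the interferon-induced list, 2 genes were tested and edgeR called 0 at 72 h with IL-21, with 1 at an unadjusted p under 0.05 and 1 called by DESeq2. Between 24 h and 72 h without IL-21, edgeR called 1 of the 2 higher, against 17.7% of all genes called. For the IL-21 effect at 72 h minus that at 24 h, 1 of 2 was called, against 4.34%.

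Across the 34 libraries, with log2(RPKM + 1) centred within each experiment, the heavy chains varied together. H2-K1 correlated with H2-Q7 at a Pearson r of 0.834, with H2-D1 at 0.796 and with H2-T23 at 0.728, and B2m correlated with H2-K1 at -0.191 and with Psmb8 at -0.590. Among 3784 genes, those most like H2-K1 were H2-Q5 (0.868), Stx5a (0.841) and H2-Q7. Those most like B2m were Hcst (0.933), Tyrobp (0.932) and Pfdn5 (0.929), and those most like Tap1 were 9530068E07Rik (0.759), Dok2 (0.757) and Pstpip1 (0.748). Each point is a library whose depth and quality all its genes share, and reads that fit several class I genes would raise the likeness among heavy chains.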

How the data were processed

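Bulk libraries of sorted or cultured uterine NK cells were compared within 4 experiments. For each bulk library the authors deposited a table of raw read counts per gene; the submitters' processing notes name HISAT2 2.1.0, featureCounts (Subread) and mm10, while the methods name RSEM for quantification. BD Rhapsody UMI counts, one value a gene and cell, were deposited in tables that were joined over the same 15175 cells (35237 genes). The members and gene lists were chosen with earlier results of these data known. Members were tested wherever they passed the filter, and not all 10 are named in the text of every experiment. Of 28 other pathway genes, counts were given for part of the comparisons. Bulk values were given for at most 3 called genes a comparison, chosen by adjusted p.

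RPKM was computed from the counts and the gene lengths in the files. A gene was tested if any group had RPKM above 10 in each of its libraries. The test was edgeR 4.0.16 (quasi-likelihood, TMM, 1 fit an experiment) in R 4.3.3, with calls at an adjusted p below 0.05 (Benjamini-Hochberg). The standard error was the fold change divided by the root of F. The fit was also run on simulated counts as a check of the code, and the outcome is not given here. DESeq2 1.42.0, limma 3.58.1, other filters and leaving out each library were alternatives. Single cells with over 200 and under 2500 genes and under 10% mitochondrial UMIs were clustered with scanpy 1.11.5 (Leiden, resolution 0.8, 2000 variable genes, 20 components); the methods give these limits for UMIs, which is an alternative here. Scrublet marked 1 of 8907 cells, which is too few to have worked, and no doublet was removed. Depth was 11862089 to 66468883 counts a bulk library, and Poisson intervals cover counting error only. The labels give IL-15 at 10 ng/mL in the sample fields and another value in the protocol text, and the methods give Stattic in another unit than the labels. ATAC-Seq was not analysed here. Promoter windows were RefSeq's (GRCm38.p6); gene positions came from GENCODE vM21 (GRCm38), which may differ from the authors' gene models. The other pathway genes at gd6.5 against virgin are not reported here.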

Additional observations from a re-analysis of the deposited data

Results flagged for a closer look

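The effect of IL-21 on H2-T23 differed between 72 h and 24 h of culture by 2.27 on the log2 scale in the test of the difference itself (edgeR, adjusted p = 0.0235), with H2-T23 higher with IL-21 in both libraries at 72 h. The value stayed between 1.97 and 2.36, but was no longer called, without the 24 h replicate 1 (adjusted p = 0.0575), the 24 h replicate 2 (0.0869) or the 24 h IL-21 replicate 2 (0.125), or in the fit of the groups compared alone (2.27, adjusted p = 0.156).

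A further 3 pairs of time points were set apart by the order of their libraries. Every library with IL-21 lay on 1 side of every library without it at 1 time, and on the other side at the other time. These differences were not tested. With 2 libraries a group such an order says little, and the share of all genes that show it was not counted. The difference between libraries with and without IL-21 at 72 h exceeded that at 0 h by 2.30 for H2-T23. For Psmb8, the difference at 6 h exceeded that at 0 h by 0.43 and the difference at 72 h exceeded that at 0 h by 1.23. All 3 rest on the libraries labelled 0 h with IL-21, where H2-T23 stood at 20.9 and 36.3 RPKM against 45.7 and 43.7 without IL-21, and Psmb8 at 123 and 156 against 172 and 182. A label of 0 h leaves no time in culture, so the 0 h differences cannot be read as an effect of IL-21. At 0 h edgeR called 0 of 3503 genes, and 671 of 3503 genes differed more than 2-fold between the IL-21 replicates.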

How the results depend on the processing

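The 12 called member values kept their call under DESeq2 and under limma voom; 8 kept it with edgeR's own count filter, 11 with the replicate block, 7 in fits of the groups compared alone and 30 of 52 when a library was left out, and none changed sign. With DESeq2 the count of members called was 2 at gd6.5 against virgin (1 in the report), 1 at gd8.5 against virgin (0), 2 at gd8.5 against gd6.5 (0), 1 at CB_int against CB_low (0), 7 at CB_hi against CB_int (0), 1 with Stattic against IL-21 (0) and 1 against control (0), 2 at 72 h against 24 h without IL-21 (1) and 2 for the IL-21 effect at 72 h minus 24 h (1). With the wider count filter it was 0 at gd6.5 against virgin and 4 at CB_hi against CB_low (7). With only the groups compared, it was 0 at gd6.5 against virgin, 4 at gd8.5 against gd6.5, 4 for IL-21 at 24 h (0), and 0 for IL-21 at 72 h (2), for 72 h against 24 h and for the IL-21 effect at 72 h minus 24 h; the cause was not tested. Asking also for a change above 2-fold left 4 at CB_hi against CB_low, 1 for IL-21 at 72 h and 0 for 72 h against 24 h. Leaving out 1 library at a time gave 0 to 5 at gd6.5 against virgin, 0 to 9 at gd8.5 against virgin, 1 to 6 at CB_hi against CB_low, 1 to 4 for IL-21 at 72 h, 0 to 1 for 72 h against 24 h and 0 to 2 for the IL-21 effect at 72 h minus 24 h.

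The labels do not say whether libraries with the same replicate number share mice or days. Deviations of same-numbered libraries correlated between -0.282 and 0.108 over the gestation pairs, 0.010 and 0.399 over the subsets, -0.509 and 0.598 over the inhibitor culture and -0.392 and 0.477 over the time course. With the replicate block, 0 members were called at gd6.5 against virgin and 1 at CB_hi against CB_int; no other count of members moved by over 1.5 times.

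The H2-K1 ratio between the Mt2 and Gzmg cluster and the Cox6a2 cluster (0.221) was 0.466 with limits on UMIs, 0.167 without an upper limit on genes, 0.318 at Leiden resolution 0.4 and 0.133 with 3000 variable genes, and that of Psmb8 (1.07) was 0.986 with limits on UMIs, where the matching clusters shared 119 and 479 cells with those described. Nlrc5 was too low in the gestation and culture libraries to pass the level filter, and 2 libraries a group limit every test.

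Counts over all genes depended on the tool and filter as well. DESeq2 called 1125 genes at gd6.5 against virgin (417 with edgeR), 275 at gd8.5 against virgin (19), 436 at CB_int against CB_low (15), 624 at CB_hi against CB_int (86), 162 with IL-21 in the 3-day culture (12), 463 with Stattic against IL-21 (123), 613 against control (197), 188, 233 and 642 with IL-21 at 6, 24 and 72 h (77, 63 and 329), 11 at 6 h against 0 h (0), 26 at 24 h against 6 h (3) and 384 for the IL-21 effect at 72 h minus 24 h (152). With the wider filter the counts were 5 at gd6.5 and at gd8.5 against virgin, 1 at CB_int against CB_low, 11 at CB_hi against CB_int, 0 with IL-21 in the 3-day culture, 1 and 21 with Stattic, 10, 1 and 769 with IL-21 at 6, 24 and 72 h, 0 at 24 h against 6 h, 1170 at 72 h against 24 h (619) and 362 for the IL-21 effect at 72 h minus 24 h. In fits of the groups compared alone they were 0 at gd6.5 against virgin, 974 at gd8.5 against gd6.5 (0, and 669 with DESeq2), 6 and 31 at CB_int against CB_low and CB_hi against CB_int, 441, 999 and 0 with IL-21 at 6, 24 and 72 h, 4, 51 and 73 over the steps of time, and 6 (0, and 3 with DESeq2) and 45 for the IL-21 effect at 24 h minus 6 h and at 72 h minus 24 h. With the replicate block they were 2 and 0 at gd6.5 and gd8.5 against virgin, 25 and 173 at CB_int against CB_low and CB_hi against CB_int, 1 with IL-21 in the 3-day culture and 8 and 55 with Stattic, and with limma voom 32 at CB_int against CB_low.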
